A study of Mus musculus with 21 samples.

Results

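Cholesterol synthesis, uptake and export were followed through 30 genes, taken by symbol from the 19285 genes that have a value in the deposited table. They are 8 enzymes of the mevalonate and isoprenoid steps, 11 enzymes of the steps from squalene to cholesterol, 5 genes of sterol sensing, and 6 genes of cholesterol transport, storage and export. Levels are in FPKM, the fragments of a transcript scaled by its length and by the fragments mapped in the library, so that genes of different length can be set side by side. Of the 30 genes, 29 reached 1 FPKM in at least 3 libraries and were tested. Abcg1, a transporter that moves cholesterol to lipoprotein particles, did not, at 0.04 to 0.89 FPKM over the 21 libraries.

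Total RNA was sequenced from untreated primary cells of C57BL/6J mice in 7 groups of 3 libraries, all of them cultured in DMEM/F12 with 10% fetal bovine serum. The testicular groups are peritubular myoid cells (PTM), which wrap the seminiferous tubule and contract, the Sertoli cells that support sperm formation inside it, the Leydig cells that make androgen between the tubules, and germ cells. Smooth muscle cells from vessel (VSMC), gut (ISMC) and airway (TSMC) were bought from a supplier, while those of the testis were isolated by published methods, so tissue and origin of the cells cannot be separated. No age, pooling or culture time is given in the labels used here, and nothing there says that the 3 libraries of a group came from different cultures or mice, so p-values measure the spread between libraries, which may be technical. The FPKM values imply a depth of 20200000 to 22300000 fragments per library.

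The defining markers did not follow all of the labels. The summed level of 6 contractile genes (Acta2, Tagln, Myh11, Cnn1, Des and Actg2) was 3088 to 3561 FPKM in the libraries labelled PTM, 8869 to 12080 in those labelled Sertoli and 4469 to 5096 in the smooth muscle libraries. The summed level of 6 Leydig genes (Insl3, Cyp11a1, Star, Hsd3b6, Cyp17a1 and Hsd17b3) was 2317 to 4912 FPKM in PTM, 989 to 7146 in Leydig and 84.2 to 93.8 in Sertoli libraries. Insl3 made up most of it in PTM and Leydig libraries. Cyp11a1 was at 197 to 385 FPKM in PTM, 156 to 322 in Leydig and 2.82 to 7.86 in Sertoli libraries. Star did not follow, at 62 to 79.7, 17.8 to 75.1 and 74 to 78.2 FPKM in the same order. Cyp17a1 and Hsd17b3, enzymes of androgen synthesis, did not pass 0.12 and 0.71 FPKM in the Leydig libraries. The summed level of 6 Sertoli genes (Sox9, Wt1, Cldn11, Cst12, Gatm and Dmrt1) was 329 to 1244 FPKM in PTM, 378 to 686 in Sertoli and 35.5 to 54.3 in Leydig libraries. Germ cell libraries held 12900 to 13350 FPKM of 6 germ cell genes, and the other groups at most 13.8. Of 6 fibroblast genes the Leydig libraries held 2591 to 3176 FPKM, the PTM and Sertoli libraries 175 to 276 and the smooth muscle libraries 103 to 139. Of 8 endothelial genes VSMC and ISMC held 221 to 249 FPKM, PTM 47.9 to 71.3, TSMC 38.6 to 41.5, Leydig 18.3 to 37.5 and Sertoli 18.7 to 20.5. The groups are called by their labels below, and the part that a mixture of cell types has in the results was not tested.

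Cholesterol is built from acetyl units. The mevalonate steps lead to farnesyl diphosphate, squalene synthase joins this into squalene, and the sterol steps close the rings and trim the product to cholesterol. SREBP transcription factors raise the genes of the pathway when membrane sterol is low, escorted by SCAP and held back by the INSIG proteins, while other proteins carry cholesterol out of endosomes, store it as esters or export it. In the testis, Leydig cells turn cholesterol into androgen.

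The promoters of 7 genes that differed in the comparisons below are shown, because the pathway is known for short motifs near the gene start that SREBP and its partner NF-Y bind. They span the mevalonate steps (Hmgcs1, chr13:119690171-119690350, plus strand, and Idi1, chr13:8885426-8885605, plus strand) and the sterol steps (Msmo1, chr8:64733579-64733758, minus strand, Nsdhl, chrX:72918341-72918520, plus strand, and Sc5d, chr9:42264301-42264480, minus strand). Insig1 (chr5:28071232-28071411, plus strand) stands for sterol sensing and Abca1 (chr4:53159896-53160075, minus strand) for export. Each run is the 180 bases before the annotated start, 5′ to 3′ on the strand of the gene, from RefSeq on GRCm38.p6. Capitals mark CCAAT (the NF-Y box, ATTGG on the other strand), CACGTG (the E-box) and TCACNCCAC (the core of the sterol regulatory element).
Hmgcs1: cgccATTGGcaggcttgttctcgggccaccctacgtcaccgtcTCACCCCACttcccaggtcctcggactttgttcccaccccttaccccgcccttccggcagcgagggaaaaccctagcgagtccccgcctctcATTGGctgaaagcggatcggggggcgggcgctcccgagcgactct
Idi1: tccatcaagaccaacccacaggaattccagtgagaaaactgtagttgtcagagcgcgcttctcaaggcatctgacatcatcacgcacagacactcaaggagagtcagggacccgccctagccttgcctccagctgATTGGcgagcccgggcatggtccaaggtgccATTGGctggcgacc
Msmo1: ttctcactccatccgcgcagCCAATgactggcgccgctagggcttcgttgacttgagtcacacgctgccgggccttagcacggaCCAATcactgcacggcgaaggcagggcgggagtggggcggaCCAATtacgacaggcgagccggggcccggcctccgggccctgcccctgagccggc
Nsdhl: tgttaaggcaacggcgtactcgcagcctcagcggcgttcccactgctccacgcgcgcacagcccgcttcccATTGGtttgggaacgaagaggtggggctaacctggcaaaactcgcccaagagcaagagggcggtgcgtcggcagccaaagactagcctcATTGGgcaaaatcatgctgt
Sc5d: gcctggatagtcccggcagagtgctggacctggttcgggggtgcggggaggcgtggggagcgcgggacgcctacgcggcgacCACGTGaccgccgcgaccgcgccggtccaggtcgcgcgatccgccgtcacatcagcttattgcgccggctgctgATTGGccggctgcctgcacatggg
Insig1: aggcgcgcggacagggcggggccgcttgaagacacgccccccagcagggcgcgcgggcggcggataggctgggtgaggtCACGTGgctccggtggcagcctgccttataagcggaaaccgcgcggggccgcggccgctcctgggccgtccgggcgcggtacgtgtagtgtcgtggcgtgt
Abca1: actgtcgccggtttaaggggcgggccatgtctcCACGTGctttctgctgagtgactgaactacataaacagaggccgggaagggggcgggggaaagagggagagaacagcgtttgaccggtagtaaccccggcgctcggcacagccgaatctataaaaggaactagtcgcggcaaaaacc

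RefSeq windows of 250 bases before to 50 after the start were at hand for 24 of the 30 genes, without Fdft1, Fdps, Sqle, Stard4, Npc1 and Abcg1. On either strand, CCAAT was found in 21 of the 24 genes (87.5%) and in 15 of 16 enzymes, against 43.2% of the 11544 tested genes with a window. CACGTG was found in 6 of the 24 genes (25%, against 11.3%), among them Sc5d, Insig1 and Abca1. TCACNCCAC was found in 1 gene (4.17%, against 1.41%), Hmgcs1, with its first base at position -137 from the start. The motifs do not overlap each other in the printed runs. A match says only that the letters are present in the window.

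Among the testicular somatic groups, the means of the 19 enzymes were mostly highest in Leydig, intermediate in PTM and lowest in Sertoli libraries. Mean levels ran Leydig over PTM over Sertoli in 15 of the 19 enzymes, against 17% of all tested genes, and the Sertoli mean was the lowest of the 6 somatic groups in 17 of the 19, against 14.7%. Between PTM and Leydig libraries 0 of the 19 enzymes were called. Replicate 2 was the lowest library for 18 of the 19 enzymes in PTM and likewise in Leydig. Leaving out PTM replicate 2 removed most of the difference between these groups, as given below. Summed over the 11 sterol enzymes, the level was 414, 199 and 379 FPKM in PTM, 131, 135 and 132 in Sertoli, and 471, 321 and 458 in Leydig libraries. Sertoli libraries lay below all others, and Leydig libraries above all PTM libraries except that Leydig replicate 2 lay below 2 of the 3. Summed over the 8 mevalonate enzymes, the level was 315, 182 and 308 FPKM in PTM, 98.3, 128 and 101 in Sertoli, and 435, 206 and 333 in Leydig libraries. Here PTM and Leydig libraries overlapped, and Sertoli libraries again lay below both. In bulk RNA, fewer cells of a type and less RNA of a gene per cell cannot be told apart.

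**Figure D1:**
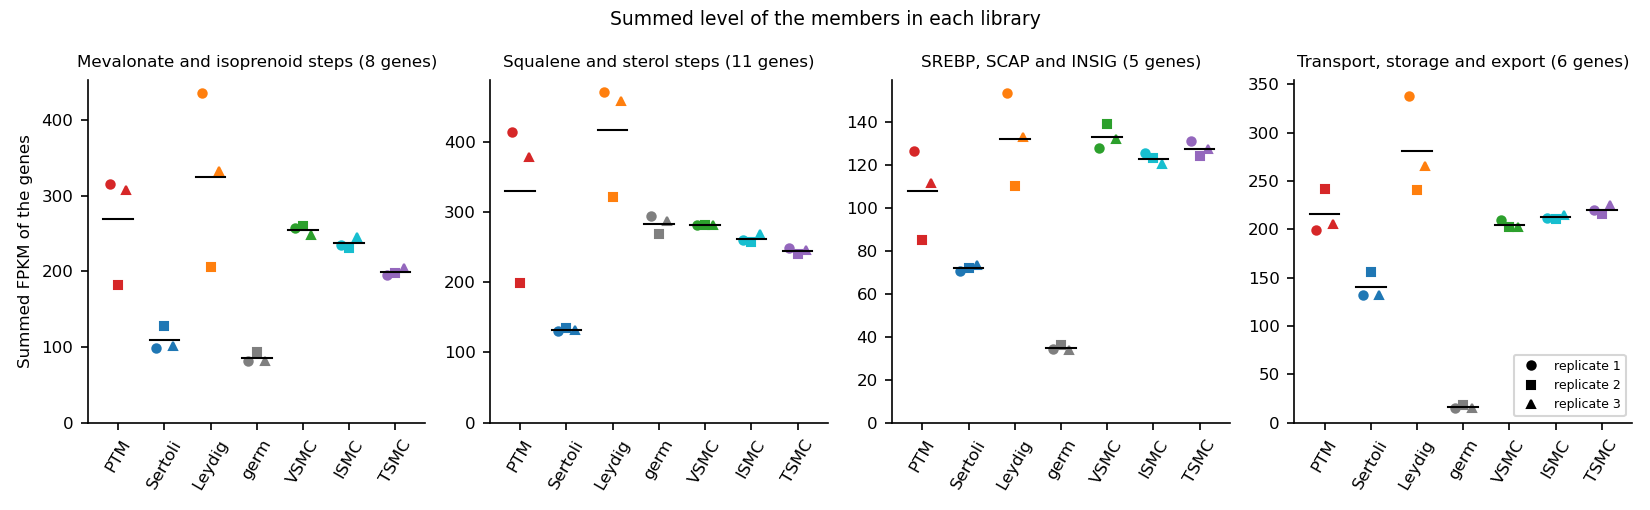
Summed FPKM of the genes of each role (vertical axis, from 0) in the 21 libraries by group, with 1 point per library, shaped by replicate number, and a line at the mean of the group. For both sets of enzymes the Sertoli libraries lie below every other somatic library, and replicate 2 is the lowest PTM and the lowest Leydig library.

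Between PTM and Sertoli libraries, 11 of the 29 tested genes were higher in PTM and 0 were lower, beside 6.06% of all tested genes called, 3.56% higher and 2.51% lower in PTM. A gene is called here when limma's adjusted p is under 0.05 and the absolute log2 fold change, on the log2(FPKM + 1) scale, is at least 1. All 11 are enzymes, 4 of the 8 mevalonate and 7 of the 11 sterol enzymes. The log2 fold change of the 19 enzymes had a median of 1.17, beside 0.06 for all tested genes. Markers of other cells differed as well, in both directions. Of 3 tested Leydig genes 2 were higher in PTM (median 5.49), whereas all 6 contractile genes were lower (median -2.32). Of the 6 Sertoli, 6 germ cell and 6 fibroblast genes 0 were called, with 1, 4 and 2 at an unadjusted p under 0.05 by limma. Unadjusted p was under 0.05 for 5691 of the 14444 tested genes. Of 12 macrophage genes 6 were higher in PTM and 12 above 0 (median 1.46), with summed levels of 109.9, 218 and 129.6 FPKM in PTM and 10.3, 57.5 and 16.3 in Sertoli libraries. Of 8 endothelial genes 4 were higher (median 1.07), at 47.9 to 71.3 against 18.7 to 20.5 FPKM. The part of all these markers in the enzyme difference was not tested. Over all tested genes, same-numbered PTM and Sertoli libraries deviated together from their group means, with low correlations of 0.103 to 0.250. Among the 19 enzymes replicate 2 was lowest for 18 in PTM, beside 39.9% of all tested genes. In Sertoli libraries it was lowest for 7 and highest for 10, near the 35.2% and 48.7% of all tested genes. In a fit of the 6 PTM and Sertoli libraries alone with the replicate number as a block, 2 of the genes were called (Hmgcs1 and Sc5d), against 4 without the block (Dhcr7, Fdps, Hmgcs1 and Nsdhl). Without the block, limma's adjusted p was 0.0626 for Acat2, 0.0548 for Idi1, 0.0841 for Sc5d and 0.0673 for Msmo1. The adjusted p-values below come from the fit of all groups, which shares the spread of a gene over all of them. Replicates of the smooth muscle groups varied less in the enzymes than those of PTM and Sertoli. In the fit of all groups without PTM replicate 2, 16 genes were called. The 6.06% of all tested genes belongs to the fit of all 21 libraries. No such share is given for the fits with fewer libraries, so their counts stand without it.

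Between Sertoli and Leydig libraries, 17 of the 29 genes were lower in Sertoli and 0 were higher, beside 12.9% of all tested genes called, 6.32% higher and 6.56% lower in Sertoli. They comprise 14 enzymes, Insig1, Npc2 and Abca1, and the median over the 19 enzymes was -1.54 beside 0.04 for all tested genes. This comparison shares its Sertoli libraries with the previous one. Between PTM and Leydig libraries 2 genes, Insig1 and Abca1, were lower in PTM and 0 were higher, beside 11.1% of all tested genes called, 6.53% higher and 4.57% lower in PTM. The 19 enzymes had a median of -0.3 beside 0.1 for all tested genes. By limma, 0 of them were called, with 6 at an unadjusted p under 0.05, beside 8138 of the 14444 tested genes. Without Leydig replicate 2 the enzymes Lss, Nsdhl and Tm7sf2 were also called lower in PTM, 5 genes in all. Without PTM replicate 2 the enzymes stood 9 above and 10 below 0, with a median of -0.03.

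**Figure D2:**
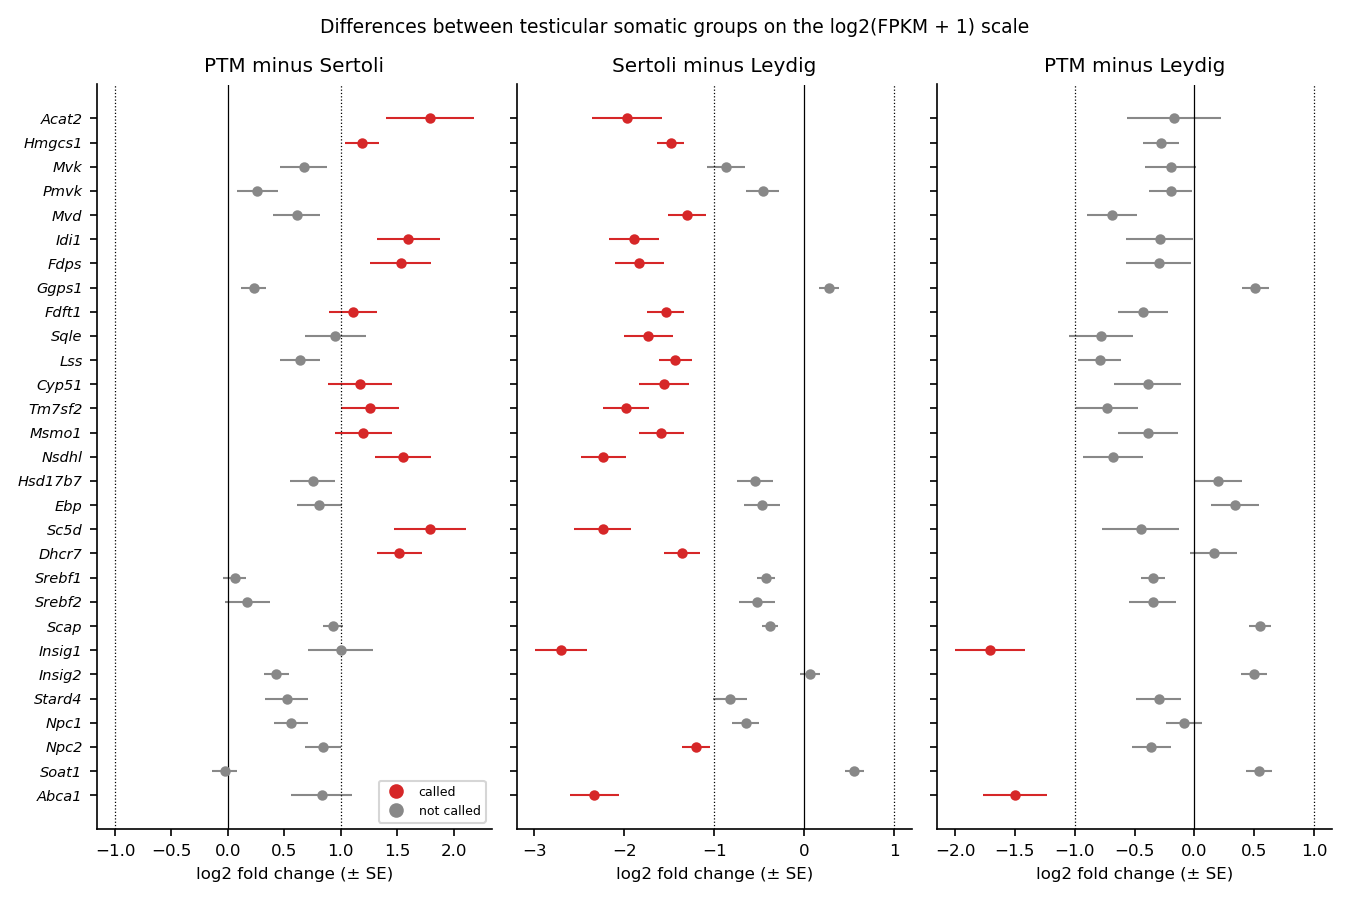
Log2 fold change with its SE (horizontal axis, log2(FPKM + 1) scale) of the 29 tested genes in the 3 comparisons between testicular somatic groups, with called genes in red and dotted lines at a change of 1 either way. Between PTM and Sertoli all 19 enzymes lie above 0, whereas between PTM and Leydig the called genes are Insig1 and Abca1.

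The mevalonate enzymes open the pathway. Hmgcs1 (Entrez 208715, chromosome 13, 119690351 to 119708260, plus strand), which makes HMG-CoA, was at 52.8, 47.9 and 56.7 FPKM in PTM, 19.4, 27.3 and 21 in Sertoli and 79.4, 50.7 and 65 in Leydig libraries. PTM libraries all lay above the Sertoli libraries, as did the Leydig libraries, and PTM and Leydig overlapped. PTM exceeded Sertoli by 1.19 in log2 fold change (SE 0.15, adjusted p = 1.21e-05, limma), and the value for Sertoli against Leydig was -1.48 (adjusted p = 3.34e-07).

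Acat2 (Entrez 110460, chromosome 17, 12943042 to 12960725, minus strand), a thiolase that joins acetyl units, was at 44.1, 21.4 and 43.6 FPKM in PTM, 6.12, 17.4 and 7.27 in Sertoli and 71.9, 18.1 and 45.4 in Leydig libraries. The second replicates of the 3 groups came close to each other, while replicates 1 and 3 of PTM and Leydig lay far above those of Sertoli. Its log2 fold change was 1.79 between PTM and Sertoli (SE 0.39, adjusted p = 0.00216) and -1.97 between Sertoli and Leydig libraries (adjusted p = 0.000434). Of its 50-base windows, 45.9% also occur in Acat3, so reads may have been divided between the copies. Acat3 stood at 7.15, 3.91 and 5.71 FPKM in PTM, 0.44, 0.76 and 0.66 in Sertoli and 10.2, 2.32 and 14.1 in Leydig libraries.

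Idi1, the isomerase of the isoprene units, was at 29.5, 10.5 and 26.4 FPKM in PTM, 5.3, 6.36 and 6.43 in Sertoli and 31.7, 15.6 and 31.3 in Leydig libraries. The Sertoli libraries lay below all PTM and Leydig libraries, with log2 fold changes of 1.6 for PTM against Sertoli (SE 0.28, adjusted p = 0.000401) and -1.89 for Sertoli against Leydig (adjusted p = 2.97e-05). Fdps, which makes farnesyl diphosphate, was the most abundant mevalonate enzyme in these groups, at 134, 55 and 128 FPKM in PTM, 31.6, 36.7 and 32 in Sertoli and 169.9, 76.7 and 136 in Leydig libraries. Its log2 fold changes were 1.53 (adjusted p = 0.000365) and -1.83 (adjusted p = 2.32e-05) in the same comparisons. Idi1 and Fdps share 21.3% and 11.7% of their windows with other gene models, so their counts are uncertain to that extent.

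Mvk, Pmvk and Mvd, the enzymes that phosphorylate and decarboxylate mevalonate, separated the groups less. Mvd was at 11.5 ± 2.33 FPKM in PTM, 7.09 ± 0.48 in Sertoli and 20 ± 8.3 in Leydig libraries (SD, n = 3), and was called between Sertoli and Leydig libraries (-1.3, adjusted p = 5.48e-05). Mvk and Pmvk were called in none of the 3 comparisons, with log2 fold changes of 0.67 and 0.26 between PTM and Sertoli. Ggps1, which leads away from sterols to the lipid anchors of proteins, was at 15 ± 2.83 FPKM in PTM, 12.5 ± 1.22 in Sertoli and 10.2 ± 0.325 in Leydig libraries, highest in PTM by mean, and was not called among these groups.

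Among the sterol enzymes the greatest difference between PTM and Sertoli was that of Sc5d (Entrez 235293, chromosome 9, 42254177 to 42264300, minus strand), the sterol C5 desaturase. It was at 75.1, 22.9 and 55.7 FPKM in PTM, 16.9, 7.42 and 15.7 in Sertoli and 51.7, 81.6 and 59.3 in Leydig libraries. The Sertoli libraries lay below all PTM and Leydig libraries, and it is the 1 enzyme with its highest Leydig value in replicate 2. The log2 fold change was 1.79 between PTM and Sertoli (SE 0.32, adjusted p = 0.00041) and -2.24 between Sertoli and Leydig (SE 0.32, adjusted p = 1.64e-05).

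Nsdhl, a dehydrogenase that helps to remove the methyl groups at carbon 4 of the sterol, was at 35.6, 17.9 and 34.8 FPKM in PTM, 6.91, 12.4 and 8.34 in Sertoli and 58.5, 28.7 and 56.7 in Leydig libraries. All PTM and Leydig libraries lay above the Sertoli libraries, and the log2 fold changes were 1.55 (adjusted p = 0.000192) and -2.23 (adjusted p = 1.37e-06). Msmo1, the oxidase that acts on the same methyl groups, was at 120.4, 55.6 and 114 FPKM in PTM, 42.5, 33.6 and 42.5 in Sertoli and 139, 81.7 and 152 in Leydig libraries. It was the most abundant sterol enzyme in these groups, with log2 fold changes of 1.2 (adjusted p = 0.00169) and -1.59 (adjusted p = 5.18e-05).

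Dhcr7, the reductase of a last step to cholesterol, was at 15.1, 13.2 and 14.7 FPKM in PTM, 2.93, 7.09 and 3.79 in Sertoli and 13.8, 9.48 and 15.7 in Leydig libraries. PTM and Leydig libraries overlapped and lay above the Sertoli libraries, and PTM exceeded Sertoli by 1.52 (SE 0.20, adjusted p = 1.85e-05). Tm7sf2, the sterol C14 reductase, was at 8.13, 3 and 7.59 FPKM in PTM, 1.69, 2.37 and 1.54 in Sertoli and 12, 6.13 and 14.4 in Leydig libraries. The Leydig libraries lay above the Sertoli libraries, as did the PTM libraries, with log2 fold changes of 1.26 (adjusted p = 0.00178) and -1.98 (adjusted p = 8.6e-06). Cyp51, which removes the methyl group at carbon 14, and Fdft1, squalene synthase, were called in both comparisons as well, at 1.17 and 1.11 between PTM and Sertoli and -1.56 and -1.54 between Sertoli and Leydig libraries. The calls of Cyp51 and Fdft1 between PTM and Sertoli were lost without PTM replicate 1 and without PTM replicate 3.

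Sqle and Lss, which oxidise squalene and close it into the first sterol, were called between Sertoli and Leydig libraries (-1.73 and -1.43) and not between PTM and Sertoli (0.95 and 0.64). Hsd17b7 and Ebp, a reductase and an isomerase of late sterols, were called in none of the 3 comparisons, at 0.75 and 0.81 between PTM and Sertoli. Ebp was at 44.1, 40.7 and 45.1 FPKM in PTM, 19.8, 36 and 19.9 in Sertoli and 45.8, 26.2 and 32.9 in Leydig libraries. Sertoli replicate 2 lay among the Leydig libraries. All 30 genes are plotted library by library.

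**Figure D3:**
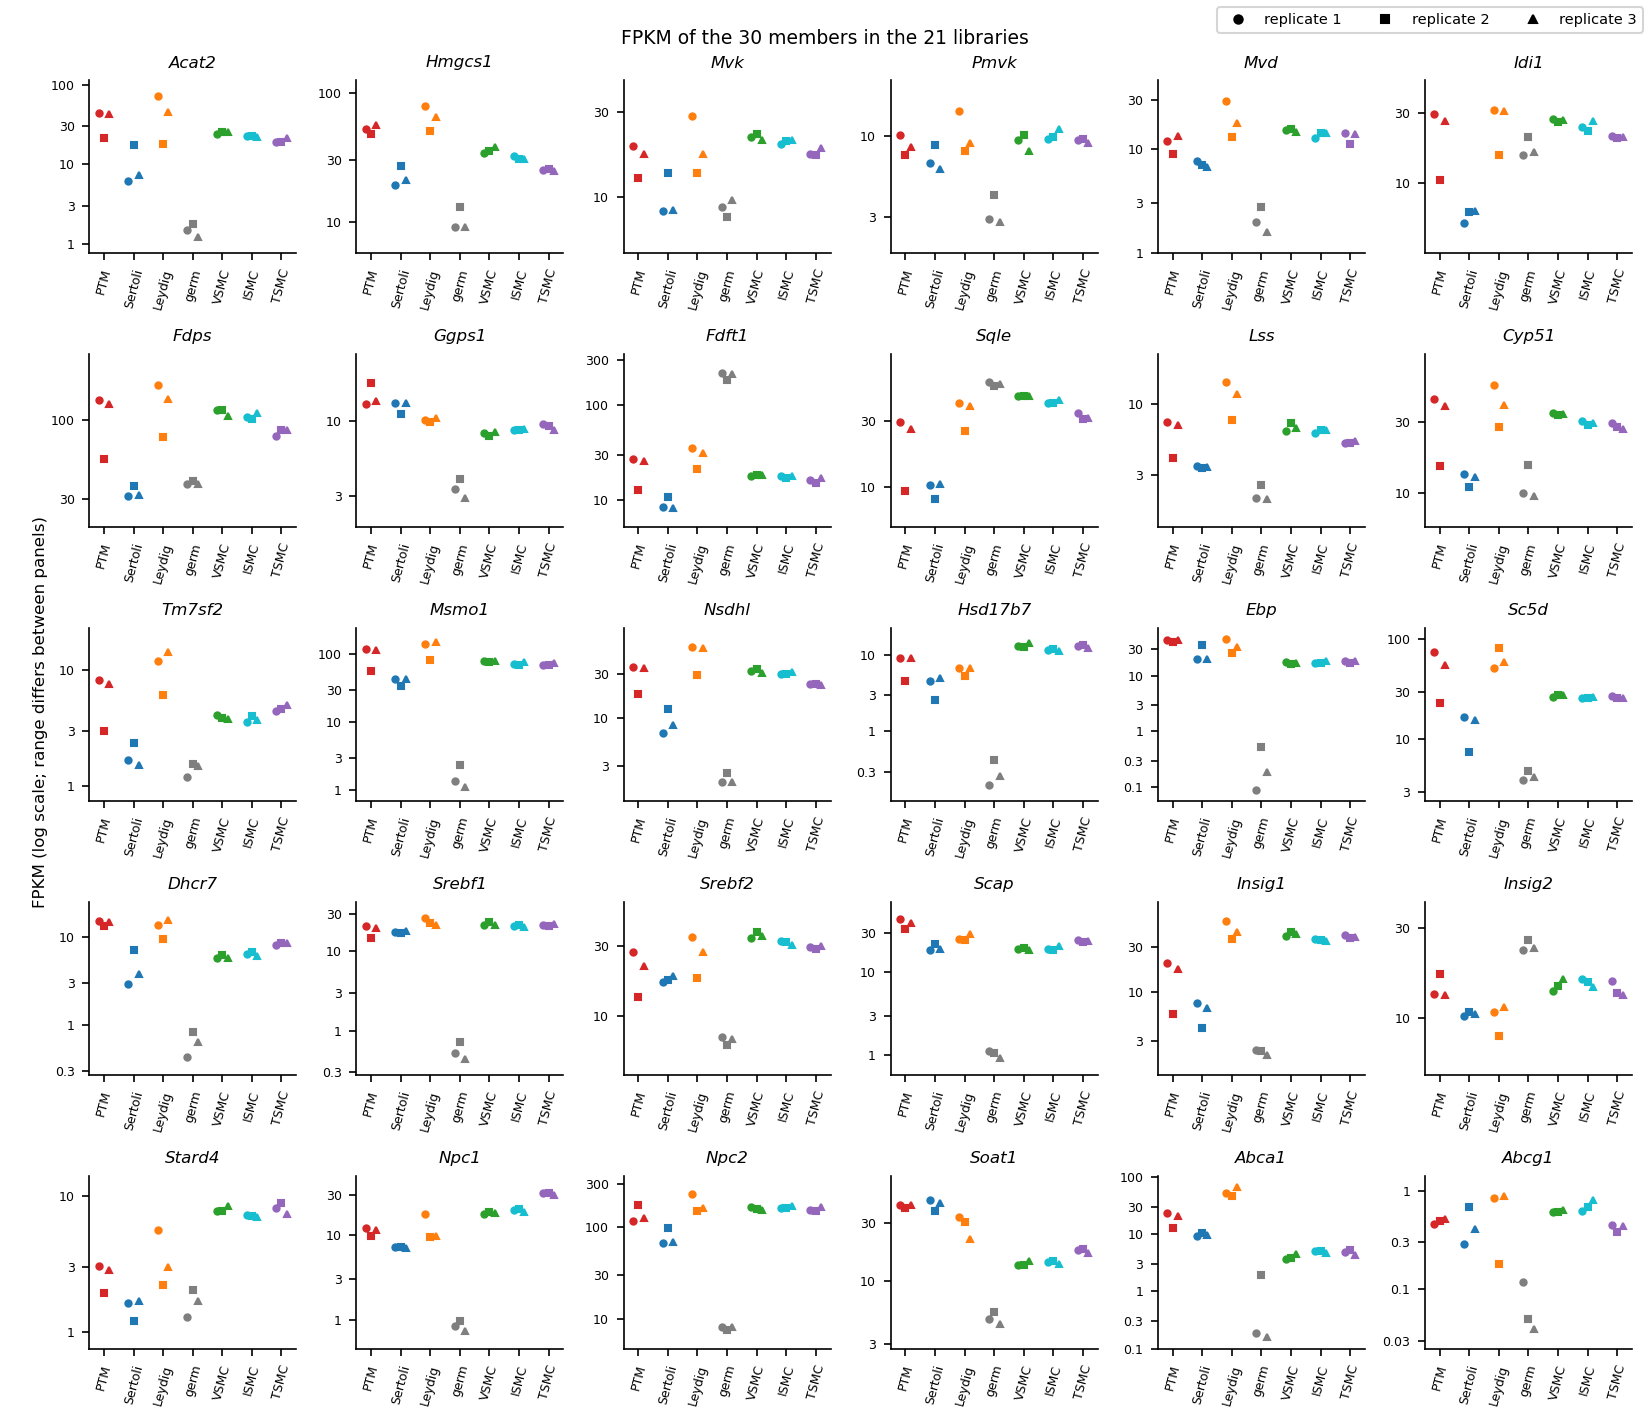
FPKM (vertical axis, log scale with a range of its own in each panel) of each of the 30 genes in the 21 libraries by group, with 1 point per library, shaped by replicate number. In most enzyme panels the Sertoli points are the lowest of the somatic groups and replicate 2 lies below the other PTM points, while Fdft1, Sqle and Insig2 have their highest points in germ cells.

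Of the 5 genes of sterol sensing, 0 were called between PTM and Sertoli libraries. By limma, 3 of them were at an unadjusted p under 0.05, beside 5691 of the 14444 tested genes. Insig1 was the 1 sensing gene called against Leydig libraries. Srebf1, which encodes the SREBP of fatty acid synthesis, was at 18.6 ± 3.22 FPKM in PTM, 17.6 ± 0.355 in Sertoli and 23.9 ± 2.5 in Leydig libraries (SD, n = 3). Srebf2, which encodes the SREBP of cholesterol synthesis, was at 20.9 ± 6.87 FPKM in PTM, 17.7 ± 0.859 in Sertoli and 26.8 ± 8.24 in Leydig libraries. Srebf1 shares 112 bases with Rai1 on the opposite strand. Neither gene was called among these groups, with log2 fold changes between PTM and Sertoli of 0.06 (adjusted p = 0.715) and 0.17 (adjusted p = 0.567). Scap, the escort of the SREBPs, was highest of all groups in PTM, at 44.7, 33.6 and 39 FPKM in PTM, 18.4, 22.1 and 19.4 in Sertoli and 25.5, 24.4 and 29 in Leydig libraries. The PTM libraries lay above all others of the series, and the value of 0.93 against Sertoli (SE 0.09, adjusted p = 9.15e-07) was short of 1.

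Insig1 (Entrez 231070, chromosome 5, 28071412 to 28078662, plus strand), the INSIG protein whose gene is itself a target of SREBP, spread the widest of the sensing genes between these groups. It was at 20.3, 5.84 and 17.5 FPKM in PTM, 7.54, 4.15 and 6.69 in Sertoli and 55.8, 36.2 and 43.2 in Leydig libraries. The Leydig libraries lay above all PTM and Sertoli libraries, while PTM replicate 2 lay within the Sertoli range. The log2 fold change was -1.71 between PTM and Leydig (SE 0.29, adjusted p = 0.000117) and -2.7 between Sertoli and Leydig (SE 0.29, adjusted p = 7.43e-07). Between PTM and Sertoli it fell just short of 1 (adjusted p = 0.016) and was called without PTM replicate 2. Insig2 was at 14.6 ± 2.17 FPKM in PTM, 10.5 ± 0.225 in Sertoli and 10.1 ± 1.79 in Leydig libraries and was not called among them.

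Of the 5 tested genes of transport and storage, 0 were called between PTM and Sertoli libraries. By limma, 4 of them were at an unadjusted p under 0.05, beside 5691 of the 14444 tested genes. Abca1 (Entrez 11303, chromosome 4, 53030789 to 53159895, minus strand), which exports cholesterol to lipoprotein, was at 23.1, 12.6 and 20.4 FPKM in PTM, 9.31, 10.5 and 9.43 in Sertoli and 50.6, 45.6 and 64.8 in Leydig libraries. The 3 groups did not overlap. The log2 fold change was -1.5 between PTM and Leydig (SE 0.27, adjusted p = 0.000171), -2.33 between Sertoli and Leydig (SE 0.27, adjusted p = 1.47e-06), and 0.83 between PTM and Sertoli, which was not called. Soat1, which esterifies cholesterol for storage, had another order, at 41.2 ± 1.18 FPKM in PTM, 42.2 ± 4.33 in Sertoli and 28.5 ± 5.8 in Leydig libraries. The values of 0.54 for PTM and 0.56 for Sertoli against Leydig libraries were short of a call.

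Npc1 and Npc2 are partners that bring cholesterol out of late endosomes, and Npc1 shares 281 bases with 3110002H16Rik on the opposite strand. Npc1 was at 11.1 ± 1.25 FPKM in PTM, 7.18 ± 0.0854 in Sertoli and 12.3 ± 4.63 in Leydig libraries, and was not called among these groups. Npc2 was at 142 ± 31.4 FPKM in PTM, 78.8 ± 17.2 in Sertoli and 183 ± 41.6 in Leydig libraries, and was lower in Sertoli than in Leydig libraries (-1.2, SE 0.16, adjusted p = 6.4e-06). Stard4, a carrier of sterol through the cytosol, was at 2.62 ± 0.588 FPKM in PTM, 1.51 ± 0.262 in Sertoli and 3.62 ± 1.76 in Leydig libraries, and was not called.

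Replicates of the testicular somatic groups differed more in the enzymes than those of the smooth muscle groups, and in PTM and Leydig replicate 2 nearly all enzymes deviated the same way. The ratio of the highest to the lowest library of a group had a median over the 19 enzymes of 2.01 in PTM, 1.41 in Sertoli and 1.86 in Leydig libraries, against 1.06 to 1.08 in the smooth muscle groups and 1.34 in germ cells. PTM replicate 2 held the lowest PTM value for 18 of the 19 enzymes, beside 39.9% of all tested genes, with a median deviation of -0.94 (log2) from the other 2 libraries. The deviation was below -1 for 9 of the 19 enzymes and for 0.852% of all tested genes. Leydig replicate 2 likewise held the lowest Leydig value for 18 of the 19 enzymes, beside 29.9% of all tested genes, with a median of -0.67. The Sertoli libraries showed no such common direction. Replicate 2 held the lowest value for 7 of the 19 enzymes and the highest for 10, with deviations from -1.04 to 1.26. Over all tested genes it held the lowest value for 35.2% and the highest for 48.7%, so the enzyme counts were near those shares. Ebp, Dhcr7 and Hmgcs1 differed least of the enzymes within PTM, with a highest value 1.11, 1.14 and 1.18 times the lowest. Insig1 and Sc5d differed most of all 30 genes, at 3.47 and 3.28 times.

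**Figure D4:**
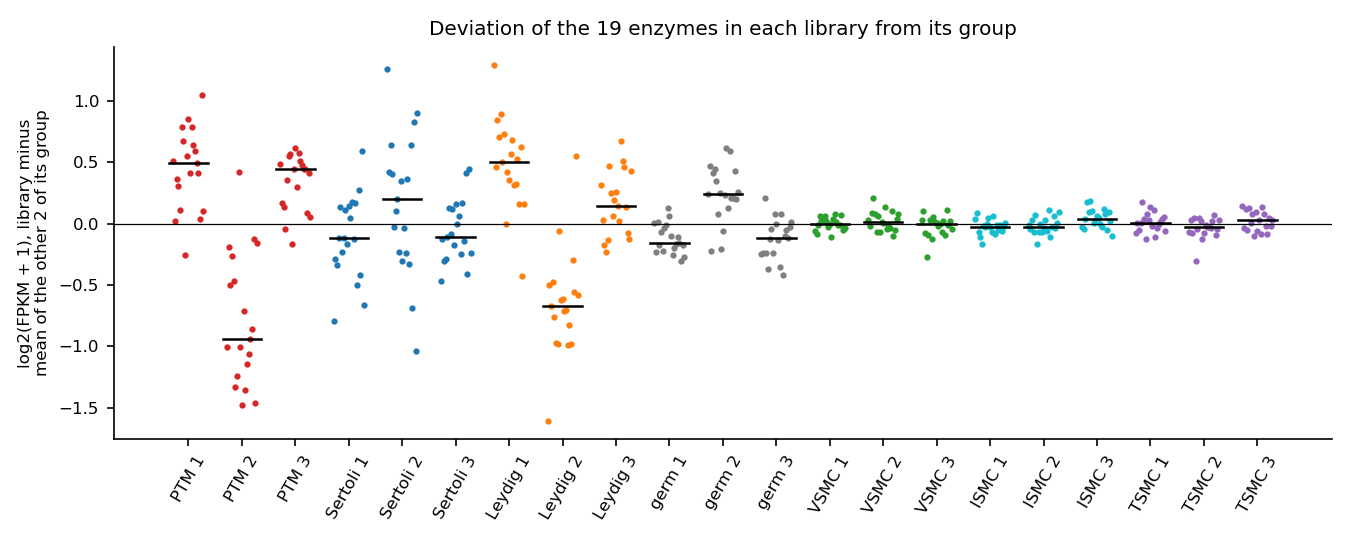
Deviation of each of the 19 enzymes in each library from the mean of the other 2 libraries of its group (vertical axis, log2(FPKM + 1)), with 1 point per enzyme and a line at the median. The medians of PTM replicate 2 and Leydig replicate 2 are -0.94 and -0.67, and no enzyme of a smooth muscle library deviates by more than 0.30.

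Marker levels of these libraries stood apart too. PTM replicate 2 had 1244 FPKM of the 6 Sertoli genes, against 329 and 508 in the other PTM libraries, and 2317 FPKM of the 6 Leydig genes against 4831 and 4912. It had 218 FPKM of 12 macrophage genes against 109.9 and 129.6. Leydig replicate 2 had 989 FPKM of the Leydig genes against 2403 and 7146, and 19.4 FPKM of the macrophage genes against 91.3 and 264. The Leydig sums followed Insl3, at 747 FPKM in Leydig replicate 2 against 2228 and 6770. Star was highest there, at 75.1 against 17.8 and 52.6 FPKM, and Cyp11a1 was at 163 against 156 and 322. In PTM replicate 2 Insl3 and Cyp11a1 were the lowest of the group, but Star was the highest, at 79.7 against 77.7 and 62 FPKM. The part of these markers in the enzyme levels was not tested.

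Germ cells held the pathway in an uneven form. Against the 6 somatic groups, 2 of the 29 genes were higher in germ cells and 24 lower, beside 69.4% of all tested genes called, 29% higher and 40.5% lower in germ cells. The median over the 29 genes was -2.06 beside -0.53 for all tested genes. The germ cell mean was the lowest of the 7 groups for 15 of the 19 enzymes, beside 48.7% of all tested genes. Quantile normalization left 1 gene higher and 19 lower, beside 4407 and 5295 of the 14444 tested genes. Median log-ratio scaling left 3 and 17, beside 4876 and 4686. These scalings shift the median of all genes by 0.19 and 0.43. Against PTM alone 23 genes were lower and 2 higher in germ cells, beside 70.5% of all tested genes called, 42.9% higher and 27.6% lower in PTM.

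Fdft1 (Entrez 14137, chromosome 14, 63145150 to 63179578, minus strand), squalene synthase, was at 215, 184 and 210.3 FPKM in germ cells and between 8.39 and 35.1 in the somatic libraries. Every germ cell library lay far above every somatic one, a difference of 3.45 in log2 (SE 0.16, adjusted p = 2.38e-13, limma). The gene shares 774 bases with Ctsb, a cathepsin on the opposite strand, and strand use in the counting is not given in the sources used here. Ctsb was at 1.95 to 4.23 FPKM in germ cells and at 95.6 to 450.1 in the somatic libraries, the opposite order. Of the windows of Fdft1, 10.9% also occur in the gene model Gm6781.

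Sqle, the next enzyme, was at 57.1, 53.8 and 55.3 FPKM in germ cells, above all somatic libraries, which ranged from 8.17 to 45.7. Its log2 fold change only just reached 1 (adjusted p = 0.000173), and it was 0.62 with quantile normalization and 0.92 without PTM replicate 2. The value for PTM against germ cells was -1.47 (adjusted p = 5.8e-05), and -0.98 without PTM replicate 2. Idi1 and Fdps, which feed squalene synthase, were at 17.6 ± 2.73 and 38.3 ± 1.24 FPKM in germ cells (SD, n = 3). Idi1 was not called against the somatic groups (-0.1, adjusted p = 0.673), and Fdps was lower (-1.14, adjusted p = 4.23e-05).

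The enzymes after lanosterol were nearly all low. Msmo1 was at 1.37, 2.36 and 1.11 FPKM in germ cells and at no less than 33.6 in any somatic library (-4.88, SE 0.19, adjusted p = 2e-14). Ebp was at 0.09, 0.53 and 0.19 FPKM, which is about 3, 18 and 6.4 reads at the implied depth, against at least 16.4 in the somatic libraries (-4.32, SE 0.15, adjusted p = 2.96e-15). The germ cell and somatic libraries did not overlap in either gene. Nsdhl was at 2.04, 2.53 and 2.06 FPKM and Dhcr7 at 0.43, 0.83 and 0.63, against at least 6.91 and 2.93 in the somatic libraries. Hsd17b7 and Sc5d were at 0.293 ± 0.114 and 4.3 ± 0.461 FPKM (SD, n = 3). Cyp51 was the highest of this stretch, at 10.1, 15.5 and 9.55 FPKM, close to the Sertoli libraries at 13.5, 11 and 12.8. Acat2, at the head of the pathway, was at 1.49, 1.78 and 1.22 FPKM (-3.27, adjusted p = 6.11e-09).

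**Figure D5:**
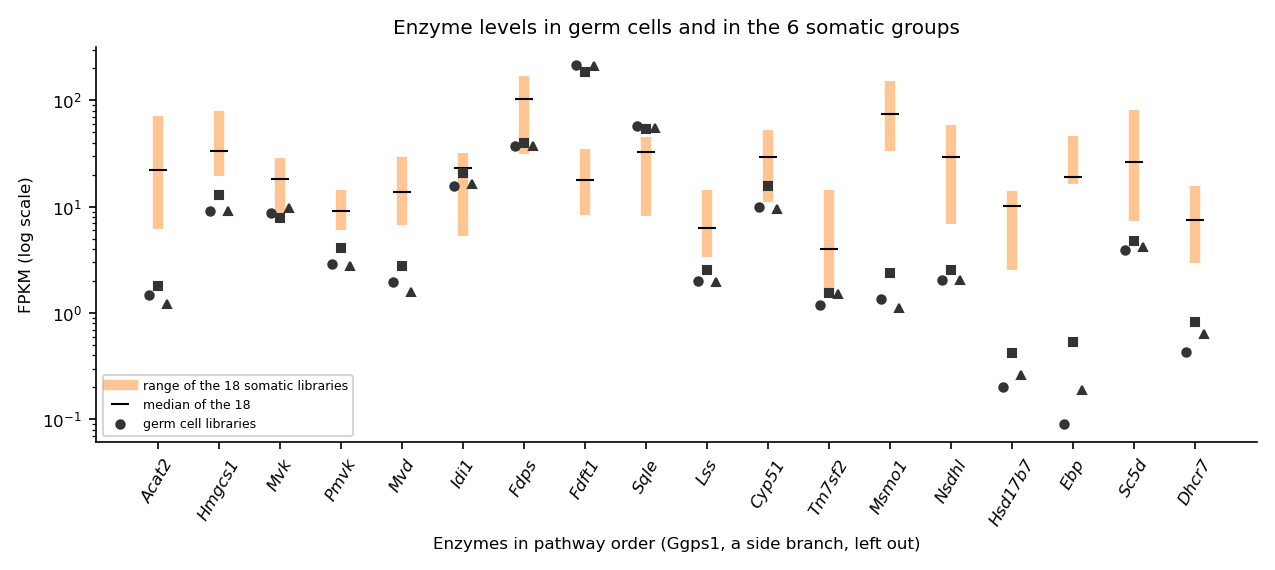
FPKM (vertical axis, log scale) of 18 enzymes in pathway order, with the 3 germ cell libraries as black points and the 18 somatic libraries as a bar from lowest to highest with a line at the median. Germ cells stand above the somatic range at Fdft1 and Sqle, overlap it at Mvk, Idi1, Fdps, Cyp51 and Tm7sf2, and lie below it at the other enzymes.

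Of the 10 tested sensing and transport genes, 9 were lower in germ cells, all but Insig2, beside 40.5% of all tested genes, and Stard4 lost its call under both other scalings. Insig2 was at 22.9, 25.7 and 23.5 FPKM, above all somatic libraries, whose highest value was 17.1, and its difference of 0.83 (adjusted p = 3.89e-08) was short of 1 but called with median log-ratio scaling. Scap was at 1.13, 1.07 and 0.93 FPKM and Srebf1 at 0.52, 0.72 and 0.44, against at least 18.4 and 14.9 in the somatic libraries. Their log2 fold changes were -3.61 (adjusted p = 4.55e-19) and -3.8 (adjusted p = 1.14e-18). Srebf2 was at 6.87 ± 0.441 FPKM and Insig1 at 2.31 ± 0.16. Npc2 was at 8.22, 7.58 and 8.11 FPKM and Npc1 at 0.85, 0.98 and 0.73, below all somatic libraries, with log2 fold changes of -3.99 and -3.1. Abca1 was at 0.19, 1.91 and 0.16 FPKM. Replicate 2 stood apart there, and the 6 Leydig genes summed to 17.9, 139 and 12.9 FPKM in the same libraries, whose part in that value was not tested.

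The 3 smooth muscle groups were compared with one another. Of the 29 tested, 0 were called between VSMC and ISMC, beside 0.831% of all tested genes called, 0% higher and 0.831% lower in VSMC. Between TSMC and VSMC 0 were called, beside 4.58% of all tested genes called, 2.48% higher and 2.1% lower in TSMC. Between TSMC and ISMC 0 were called, beside 4.17% of all tested genes called, 1.43% higher and 2.73% lower in TSMC. By limma, 0, 5 and 3 of the genes were at an unadjusted p under 0.05 in these comparisons. Of the 14444 tested genes it was 815, 4005 and 3413 in the same order. That fit shares the spread of a gene over all groups, and replicates of the testicular somatic groups varied more in the enzymes. Its p-values can therefore miss differences between the smooth muscle groups. In fits of the compared libraries alone, 0 of the genes were called in each comparison as well. With so few genes called of any kind, the counts say nothing particular about these 29. Npc1 differed most, at 31.6, 31.3 and 30.2 FPKM in TSMC, 18, 19 and 18.4 in VSMC and 20, 20.1 and 19 in ISMC. The TSMC libraries lay above all others of the series, by 0.72 against VSMC (SE 0.15, adjusted p = 0.00206) and 0.63 against ISMC (adjusted p = 0.00703), and neither difference reached 1. The 12 macrophage genes summed to 9.79 to 11.7 FPKM in TSMC, 256 to 285 in VSMC and 547 to 747 in ISMC, and their part was not tested.

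Set against the 3 smooth muscle groups, the 3 testicular somatic groups had 2 of the 29 genes higher and 5 lower, beside 16.7% of all tested genes called, 9.87% higher and 6.82% lower in the testicular groups. Abca1 was at 9.31 to 64.8 FPKM in the testicular somatic libraries, and at 3.59, 3.84 and 4.47 in VSMC, 5.09, 5.03 and 4.68 in ISMC and 4.93, 5.23 and 4.35 in TSMC. Soat1 was at 22.1 to 45.8 FPKM against 13.4 to 18.1. Neither gene overlapped between the sides, and the higher testicular levels amounted to 2.01 (SE 0.15, adjusted p = 1.95e-09) and 1.22 (SE 0.06, adjusted p = 1.37e-11) in log2.

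Stard4 and Npc1, both carriers of incoming cholesterol, were lower in the testicular somatic groups. Stard4 was at 1.21 to 5.6 FPKM there and at 6.95 to 8.8 in smooth muscle (-1.35, SE 0.11, adjusted p = 3.85e-09). Npc1 was at 7.1 to 17.6 FPKM there and at 18 to 31.6 in smooth muscle (-1.12, SE 0.09, adjusted p = 2.15e-09). Neither gene overlapped between the sides. Insig1 was lower on average (-1.25, adjusted p = 2.75e-06), although the Leydig libraries lay within or above the smooth muscle range of 34.6 to 43 FPKM. Sqle (-1.04) and Hsd17b7 (-1.02) were just past the threshold, Hsd17b7 at 2.57 to 9.12 FPKM against 11.2 to 13.9, and both calls were lost without PTM replicate 2 and without Leydig replicate 2.

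The libraries labelled PTM were also compared with each smooth muscle group. Against VSMC 4 genes were higher and 3 lower, beside 19% of all tested genes called, 12.6% higher and 6.37% lower in PTM. Against ISMC 4 were higher and 3 lower, beside 17.7% of all tested genes called, 10.7% higher and 7% lower in PTM. Against TSMC 4 were higher and 3 lower, beside 18.5% of all tested genes called, 11.3% higher and 7.2% lower in PTM. These comparisons share the PTM libraries. The balance depended on scaling, with 3 higher and 6 lower against VSMC after quantile normalization and 3 and 5 after median log-ratio scaling, 3 and 4 or 3 and 3 against ISMC, and 3 and 3 or 2 and 3 against TSMC. Hsd17b7 and Srebf2 were called lower than in VSMC under both, and Npc1 lower than in VSMC and ISMC under quantile normalization. Ebp, Soat1 and Abca1 were higher in PTM in each, except that Soat1 against TSMC was at 0.98 and not called with median log-ratio scaling. Ebp was at 40.7 to 45.1 FPKM in PTM and 16.4 to 18.3 in smooth muscle libraries, with differences of 1.31 against VSMC (adjusted p = 1.72e-05), 1.26 against ISMC and 1.23 against TSMC. Dhcr7, at 5.79, 6.15 and 5.76 FPKM in VSMC and 6.35, 6.68 and 6.01 in ISMC, was higher in PTM than in VSMC (1.15, adjusted p = 7.07e-05) and ISMC (1.06, adjusted p = 0.00017), though under 1 with quantile normalization, at 0.93 and 0.9. Hmgcs1, at 25.3, 25.5 and 24.8 FPKM in TSMC, was higher in PTM (1.03, adjusted p = 1.29e-05), at 0.85 with quantile normalization and 0.97 without PTM replicate 3.

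Insig1 and Stard4 were lower in PTM than in each smooth muscle group. Stard4 differed by -1.33, -1.18 and -1.34 against VSMC, ISMC and TSMC. The log2 fold change of Insig1 was -1.58 against VSMC (adjusted p = 0.000143), -1.38 against ISMC and -1.5 against TSMC, and the last 2 values were -0.87 and -0.99 without PTM replicate 2. Sqle was at 29.2, 9.31 and 26.1 FPKM in PTM, 45.4, 45.7 and 45.7 in VSMC and 40.6, 40.5 and 42.5 in ISMC. PTM lay below both (-1.19, adjusted p = 0.000932, and -1.05, adjusted p = 0.00272), and without PTM replicate 2 the values were -0.7 and -0.56. Npc1 was lower than in TSMC (-1.41, adjusted p = 3.54e-07). The enzymes as a set had a median of -0.07 against VSMC, -0.01 against ISMC and 0.26 against TSMC, beside 0.19, 0.14 and 0.13 for all tested genes. Without PTM replicate 2 the enzyme medians were 0.25, 0.44 and 0.59.

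Scaling bears on the counts over all genes. The share of called genes that were higher in the first-named group, as deposited, after quantile normalization and after scaling to the median log-ratio, was 58.8%, 46% and 39.8% for PTM against Leydig and 60.8%, 53.8% and 48.7% for PTM against germ cells. It was 66.5%, 45.4% and 46.3% for PTM against VSMC, 60.4%, 44.1% and 44.7% against ISMC and 61.2%, 45.9% and 46.5% against TSMC. For testicular somatic against smooth muscle groups it was 59.1%, 46.8% and 49.8%. Median log-ratio scaling shifted the median of all genes by -0.11 for PTM against Sertoli, -0.22 against Leydig and -0.27 against VSMC. The enzyme medians of 1.17, -0.3 and -0.07 became 1.07, -0.52 and -0.33.

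Other genes of lipid metabolism were counted from lists of their own. Of 12 genes of fatty acid synthesis, PTM had 3 higher and 0 lower than Sertoli libraries, beside 3.56% and 2.51% of all tested genes. Sertoli had 0 higher and 4 lower than Leydig libraries, beside 6.32% and 6.56%. Scd1, a desaturase that makes monounsaturated fatty acids, averaged 34.6 FPKM in PTM, 6.4 in Sertoli and 42.2 in Leydig libraries, with log2 fold changes of 2.09 (adjusted p = 0.000104) and -2.45 (adjusted p = 6.87e-06). Fads2, a desaturase of polyunsaturated fatty acids, differed by 1.24 and -1.29. Of 20 further genes of sterol handling, PTM had 4 higher and 0 lower than Sertoli libraries, against the same 3.56% and 2.51%. Among them were Nceh1, a cholesteryl ester hydrolase (1.51, adjusted p = 1.4e-07), Stard5, a sterol carrier (1.46, adjusted p = 7.64e-05), and Gramd1b, a sterol transfer protein at membrane contacts (1.28, adjusted p = 0.000501). Of 13 further genes of sterol control and 8 tested genes of the isoprenoid branch, 0 were called between PTM and Sertoli libraries. By limma, 6 and 3 of them were at an unadjusted p under 0.05, beside 5691 of the 14444 tested genes.

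Between PTM and Leydig libraries 2 of the 20 sterol handling genes were lower in PTM and 0 higher, beside 4.57% and 6.53% of all tested genes, with a median of 0.11 beside 0.1. Cyp27a1, the sterol 27-hydroxylase, averaged 55.8 FPKM in Leydig, 10.4 in PTM and 7.07 in Sertoli libraries. Cyp7b1, the oxysterol 7-hydroxylase, averaged 15.7, 1.94 and 0.297 FPKM in the same order. The log2 fold changes between PTM and Leydig were -2.42 (adjusted p = 1.94e-07) and -2.23 (adjusted p = 3.69e-05).

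In germ cells, 12 of the 20 sterol handling genes were lower than in the somatic groups and 3 higher, and 6 of the 13 sterol control genes were lower and 3 higher, beside 40.5% lower and 29% higher of all tested genes. Among the higher were Tmem97, the sigma-2 receptor, which binds NPC1, at a mean of 876 FPKM in germ cells and 35.8 in the somatic groups (4.6, adjusted p = 1.51e-14), and Gramd1c, at 42.9 and 0.406 FPKM (4.96, adjusted p = 9.44e-23). Rnf139, a ubiquitin ligase of the endoplasmic reticulum, was at 115 and 8.41 FPKM (3.63, adjusted p = 3.12e-20). Lipa, the lysosomal acid lipase that frees cholesterol from esters, went the other way, at 0.243 and 34.7 FPKM (-4.6, adjusted p = 4.62e-18). Of the 12 fatty acid genes 1 was higher and 8 were lower, against the same 29% and 40.5%, with Scd2 at 0.513 FPKM in germ cells and 87.8 in the somatic groups (-5.57, adjusted p = 4.32e-14).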

How the data were processed

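The authors deposited one table of FPKM values for 7 groups of 3 libraries, with a mean per group that equals the mean of its libraries within 0.00067. Per the submitters' processing notes, HISAT2 2.0.4, Bowtie2 2.2.5, RSEM 1.2.12 and the mm10 build were used, with no role or order given for them. Of 22135 rows, 19285 hold FPKM. Depth was inferred from the steps between low FPKM values of transcripts of 800 to 1500 bases, less 150 bases. The depth of each library was the one with the highest share of values within 0.2 of a whole number of fragments. That share was 85.1% to 94.0% of 350 to 554 values per library. It is a best fit, while the 40% by chance holds for a depth fixed beforehand. This depth gave approximate reads for low values and entered no test.

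Tests used limma 3.58.1 in R 4.3.3 on log2(FPKM + 1), in one fit of all 21 libraries by group, with 14 residual degrees of freedom and a two-sided moderated test with an abundance trend. The 14444 genes that reached 1 FPKM in 3 or more libraries entered. P-values were adjusted by Benjamini and Hochberg over all of them within each comparison. Folds are on the log2(FPKM + 1) scale, which understates the change of low genes. The fit was tested on simulated data that gave a gene the same spread in every group. That run cannot show how the fit does where groups differ in spread, as they do here. Comparisons of the 3 testicular somatic groups with the smooth muscle groups, and of germ cells with the somatic groups, set the averages of group means against each other.

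The numbers 1 to 3 are shared between groups. Over all tested genes, same-numbered PTM and Sertoli libraries deviated together from their group means (correlations of 0.227, 0.250 and 0.103), and this was the 1 of 21 pairs of groups with every correlation over 0.1. Same-numbered Sertoli and Leydig libraries had correlations of -0.266, -0.375 and -0.0723. The pairing comes from the values alone, since the labels name no shared animal, day or batch.

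The 30 genes, the further lists and the markers were chosen with earlier results of these data known. Values per library, or their range, are given for called genes whose sides do not overlap and that reach 10 FPKM on the higher side, up to 8 per direction and comparison. Genes given outside that rule, such as Ebp and Scap between the testicular somatic groups, Insig2 and Cyp51 in germ cells and Npc1 among the smooth muscle groups, were chosen after their values were seen. Alternatives changed the added constant, the filter, the scaling, the fold minimum and the libraries in the fit.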

Additional observations from a re-analysis of the deposited data

How the results depend on the processing

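Counts of called genes among the 29, both directions together, kept within 1.5 times of the reported ones with an added constant of 0.1, with both other filters and with both other scalings. The balance of higher and lower calls of PTM against the smooth muscle groups changed with scaling, from 4 and 3 to 3 and 6 or 3 and 5 against VSMC, 3 and 4 or 3 and 3 against ISMC, and 3 and 3 or 2 and 3 against TSMC. Without a fold minimum, 24 genes were called between PTM and Sertoli (29% of all tested genes), 12 between PTM and Leydig (51.2%) and 27 between Sertoli and Leydig (48.6%). PTM against VSMC, ISMC and TSMC then gave 14, 14 and 14 (63.7%, 61.3% and 61.6%), testicular somatic against smooth muscle groups 18 (74.4%), TSMC against VSMC 3 (17.6%) and TSMC against ISMC 1 (14%). Fitting PTM and Sertoli libraries alone gave 4 calls, and 2 with the replicate block, and the Sertoli and Leydig libraries with the replicate block gave 5, where the numbers are not shown to pair the samples; the block moved no other count by over 1.5 times. Without the second replicates of PTM, Sertoli and germ cells, 17 genes were called between PTM and Sertoli. For fits that left libraries out, the share of all tested genes called is not given here. Leaving out 1 library at a time gave 9 to 16 calls for PTM against Sertoli, 2 to 5 for PTM against Leydig, where the 5 came without Leydig replicate 2, 17 to 19 for Sertoli against Leydig, and 5 to 7 for testicular somatic against smooth muscle groups. Of 1098 values of named genes under an alternative, 1047 kept their call and 51 lost it, in 24 of 60 pairs of gene and comparison, and the cause was not tested. The named genes were picked by their calls in these data, and the setting without a fold minimum cannot lose a call. The count of 1047 therefore overstates how firm the calls are. Depth limits Ebp, Hsd17b7 and Dhcr7 in germ cells, where single libraries hold 3 to 24 reads.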
